A study of Homo sapiens with 9 samples.

Results

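The hemoglobin genes and the chaperone of free alpha globin were followed through H3K4me3 CUT&RUN peak lists of HEL cells that lacked one subunit of the m6A methyltransferase. The members were the alpha-type genes HBZ, HBA2, HBA1 and HBQ1, the beta-type genes HBE1, HBG2, HBG1, HBD and HBB, and AHSP. These 10 genes, of 20175 annotated protein-coding genes, were chosen by name. A gene counted as marked in a library when a peak came within 1 kb of an annotated start of the gene, and its value was the signal of the largest such peak. HEL is a human erythroleukemia line, and all 9 libraries came from it. The groups were NTC, a CRISPR control (3 libraries), and METTL3-KO, METTL14-KO and WTAP-KO, CRISPR knockouts of the genes they are named after (2 libraries each). The labels give no clone, guide or time point, and they do not say whether libraries of one group came from separate cultures, so p-values measure the spread between these libraries only. The comparison asks whether promoter marking at the globin genes depended on m6A methyltransferase activity. Chromatin peaks do not read the edited alleles, so the knockouts themselves could not be checked here.

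H3K4me3 is the trimethylated form of lysine 4 of histone H3 and sits over the starts of active genes. METTL3 is the catalytic subunit of the enzyme that writes N6-methyladenosine on mRNA, METTL14 is its partner in RNA binding, and WTAP holds the complex in the nucleus. A hemoglobin tetramer joins a pair of alpha-type chains to a pair of beta-type chains. Both clusters are arranged in the order in which their genes are used in development, with the embryonic gene (HBZ, HBE1) nearest to the distal enhancers, followed by the fetal genes HBG2 and HBG1 in the beta cluster and by the adult genes. The beta cluster is controlled by the locus control region, a row of nuclease-hypersensitive sites upstream of HBE1, and the alpha cluster by enhancers that lie within introns of the neighbouring gene NPRL3.

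The 3 NTC libraries held 21724 to 21941 peaks each, those of METTL3-KO 9205 and 9369, and those of METTL14-KO and WTAP-KO 3160 to 5286. Peaks were thus fewer across the genome in the knockouts, and the values of the globin genes are given beside that background. The signal is in yeast-calibrated coverage units, and the depth is unknown. A gene without a peak was below the caller's threshold in that library, which is not a measurement of 0, and it is listed here as 0. In such bulk material, fewer marked cells and less mark per cell cannot be told apart. Of 8 erythroid marker genes 5 were marked in all NTC libraries, while ALAS2, the first enzyme of erythroid heme synthesis, and SLC4A1, the red cell anion exchanger, had no peak in any library. The summed signal of the 8 was 29320 to 37010 in the NTC libraries and 0 to 3550 in the KO libraries. Megakaryocytic markers, which HEL cells also carry, summed to 22690 to 61110 in NTC (2 of 5 marked in all NTC libraries, PF4 at 0 throughout) and to 7434 to 19510 in the KO libraries. FLI1, a megakaryocytic transcription factor, had a peak in all 6 KO libraries (7434 to 17053) and in 1 of 3 NTC libraries (41598). GP9 and GP1BA, the 2 marked in all NTC libraries (means 10119 and 10076), had no peak in any KO library. ITGA2B had a peak in 2 NTC libraries and in 4 KO libraries. Of 4 myeloid markers 1 was marked in all NTC libraries, CEBPA, which had no KO peak, with MPO and SPI1 at 0 throughout. CD33, the remaining myeloid marker, had a peak of 1055 in METTL3-KO replicate 2 and in no other library. The myeloid list sum was 2846 to 3808 in NTC and 0 to 1055 in KO. Of 3 markers from outside the blood 1 was marked in all NTC libraries, COL1A1 (2470 to 2548 in NTC and 0 in KO), with ALB and KRT5 at 0 throughout.

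The promoter of HBD and the middle of a pair of peaks in the beta cluster are shown first, because the results below turn on them. Capitals mark, on either strand, GATA (the core bound by GATA1), CACCC (the box bound by KLF1), the CCAAT box, the TATAAA box and TGANTCA (the core bound by NFE2). None overlapped another in these stretches. The HBD promoter is the 250 bases before the start, written 5′ to 3′ on the coding strand, from RefSeq (GRCh38.p14, chr11:5234484-5234733, minus strand). All 250 letters were the same in GRCh37 at chr11:5255714-5255963, the build of the peak lists. The other 2 stretches are 300 bases each of the GRCh37 plus strand, centred on the part shared by the 3 NTC peaks (chr11:5296745-5297044) and by both METTL3-KO peaks (chr11:5263621-5263920). HBD was the 1 of 10 members with an entry in the promoter table used.
HBD promoter: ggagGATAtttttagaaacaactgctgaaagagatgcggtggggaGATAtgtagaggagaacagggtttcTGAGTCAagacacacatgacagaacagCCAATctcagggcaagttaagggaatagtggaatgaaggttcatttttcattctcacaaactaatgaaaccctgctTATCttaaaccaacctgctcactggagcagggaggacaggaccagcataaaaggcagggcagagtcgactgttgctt
NTC peak upstream of HBE1: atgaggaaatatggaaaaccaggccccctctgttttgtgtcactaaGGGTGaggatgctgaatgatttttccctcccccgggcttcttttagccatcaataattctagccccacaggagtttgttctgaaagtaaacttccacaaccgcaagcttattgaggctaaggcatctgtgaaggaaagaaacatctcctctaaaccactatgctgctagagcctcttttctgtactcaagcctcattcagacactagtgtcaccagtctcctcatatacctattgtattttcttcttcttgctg
METTL3-KO peak at HBBP1: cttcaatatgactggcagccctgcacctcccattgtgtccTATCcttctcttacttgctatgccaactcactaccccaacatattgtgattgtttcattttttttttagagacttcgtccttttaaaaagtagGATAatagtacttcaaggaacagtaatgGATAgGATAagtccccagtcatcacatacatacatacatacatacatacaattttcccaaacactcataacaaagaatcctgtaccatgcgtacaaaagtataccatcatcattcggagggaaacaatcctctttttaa

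The HBD promoter held GATA 3 times, CCAAT once and TGANTCA once. Of 35116 RefSeq promoters of the same length, 45.6% held GATA, 32% CCAAT and 6.57% TGANTCA. The NTC stretch upstream of HBE1 held CACCC once and no GATA, and the METTL3-KO stretch held GATA 4 times and none of the other letters. Among the centres of 16226 regions with a peak in all NTC libraries, 59.0% held CACCC and 57.8% held GATA. These are letter matches, and factor binding was not measured.

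Few globin genes were marked in every control library, and the marks of the members were weak. In the NTC libraries 6 of the 10 members had a promoter peak in at least 1 library (60%, against 52.4% of all protein-coding genes). One member, HBE1, had a peak in all 3 (10%, against 42.1%). In the KO libraries 3 members had a peak (HBD, HBG1 and HBG2), each of them in METTL3-KO libraries only, where 38.1% of all genes were marked in at least 1 library. No member was marked in a METTL14-KO library, where 21.9% of all genes were, or in a WTAP-KO library, where 14.7% were. HBZ, HBB and AHSP had no promoter peak in any of the 9 libraries. No promoter peak of a member reached the median signal of all NTC peaks, 2095.

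**Figure D1:**
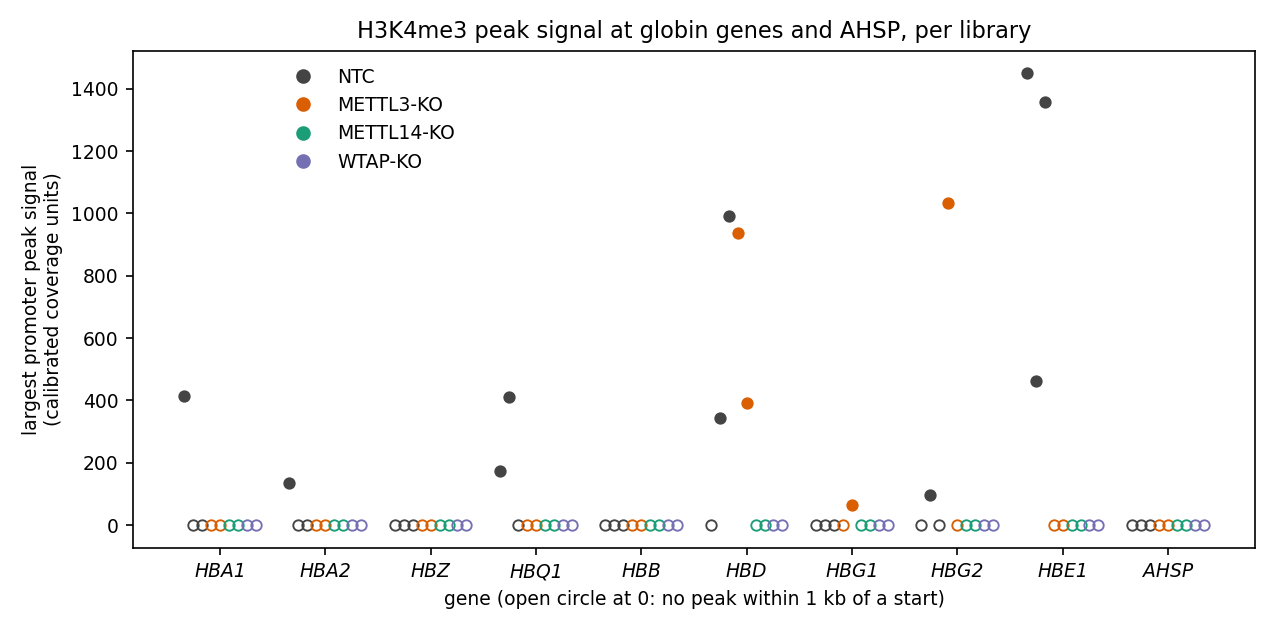
Largest H3K4me3 peak signal within 1 kb of a start (y axis, calibrated coverage units) for each of the 10 genes (x axis) in each of the 9 libraries, coloured by group; open circles at 0 are libraries without a peak. Filled circles outside NTC are found at HBD, HBG1 and HBG2, all of them METTL3-KO, and HBE1 is the one gene filled in all 3 NTC libraries.

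HBE1 encodes the epsilon chain of embryonic hemoglobin. Its promoter signal was 1449 in NTC replicate 1, 463 in replicate 2 and 1356 in replicate 3 (mean 1090 ± 544 SD, n = 3). No KO library had a peak there, so the NTC and KO libraries did not overlap. NTC libraries lay above every KO library at 68.3% of the 12037 genes tested, and HBE1 was the 1 member of the 4 tested that did so. In limma, HBE1 was lower in all KO groups against NTC, with a change of -5.06 on the log2(signal + 30.1) scale (SE 0.37, adjusted p = 1.71e-05). HBE1 entered the fit only through its NTC peaks, so it had to lie lower in the KO groups. The size of this change is set by the pseudocount, since the KO libraries are at 0, and 73.0% of all genes tested were called lower in the same comparison, with a median change of -5.30. The 6 KO values were all equal and added no spread, so the SE and adjusted p can be too small. The same holds at every place below without a KO peak. Each KO group on its own gave the same estimate, with adjusted p from 7.44e-05 to 8.59e-05, and all 3 share the NTC libraries. When libraries were centred on the genes called in all 9, which moved the median of all genes from -5.30 to -2.46, HBE1 was at -2.22 in all KO groups (adjusted p = 0.00274) and no longer passed in WTAP-KO alone (-1.39, adjusted p = 0.063). The share of genes called lower was 60.9% in METTL3-KO, 68.8% in METTL14-KO and 69.7% in WTAP-KO. An exact permutation test of the mean signal over all KO libraries gave p = 0.0238 (two-sided), the smallest that 84 splits of 3 against 6 libraries allow.

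The HBE1 mark lay in 2 places. One peak covered the start and the first part of the gene (region chr11:5290381-5291295, exon and coding sequence of HBE1), at 1423, 411 and 422 in NTC replicates 1, 2 and 3. The stronger peak, which gave the gene its value, began 0.41 kb upstream (chr11:5291584-5292135). Neither was called in any KO library, and limma over 24547 merged regions gave changes of -4.46 (SE 0.40, adjusted p = 5.04e-05) and -5.06 (SE 0.37, adjusted p = 1.44e-05). In that comparison 76.7% of regions were called lower. Both regions entered the fit only through their NTC peaks, so they had to lie lower in the KO groups. The stronger one holds the same values as the HBE1 promoter test above and adds no separate result. Among the 8495 genes marked in all NTC libraries, HBE1 stood at the 9.43rd percentile of mean NTC signal, where the median gene had 5148. In that lowest decile, 92.6% of genes had no peak in any KO library. HBE1 was thus among the large majority of the weakly marked genes.

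The strongest peak of either globin cluster was not at a promoter. It lay 5.25 kb upstream of the HBE1 start, at chr11:5296426-5297309, on the side of the locus control region, in introns of long annotated isoforms of HBE1 and HBG2 and outside any exon. Its signal was 4474, 5153 and 4914 in NTC replicates 1, 2 and 3 (mean 4847 ± 345 SD, n = 3), and the 3 NTC peaks shared 807 bases. The SD was smaller than that of the weaker peak 0.41 kb upstream of HBE1 (544). No KO library had a peak there, and limma gave a change of -7.34 (SE 0.10, adjusted p = 9.25e-09), in a comparison in which 76.7% of regions were called lower. The region entered the fit only through its NTC peaks, so it had to lie lower in the KO groups. It exceeded 65.7% of the 16226 regions with a peak in all NTC libraries. In its decile of regions by NTC signal, 64.5% had no peak in any KO library, against 97.8% in the decile that held the peak 0.41 kb upstream of HBE1.

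**Figure D2:**
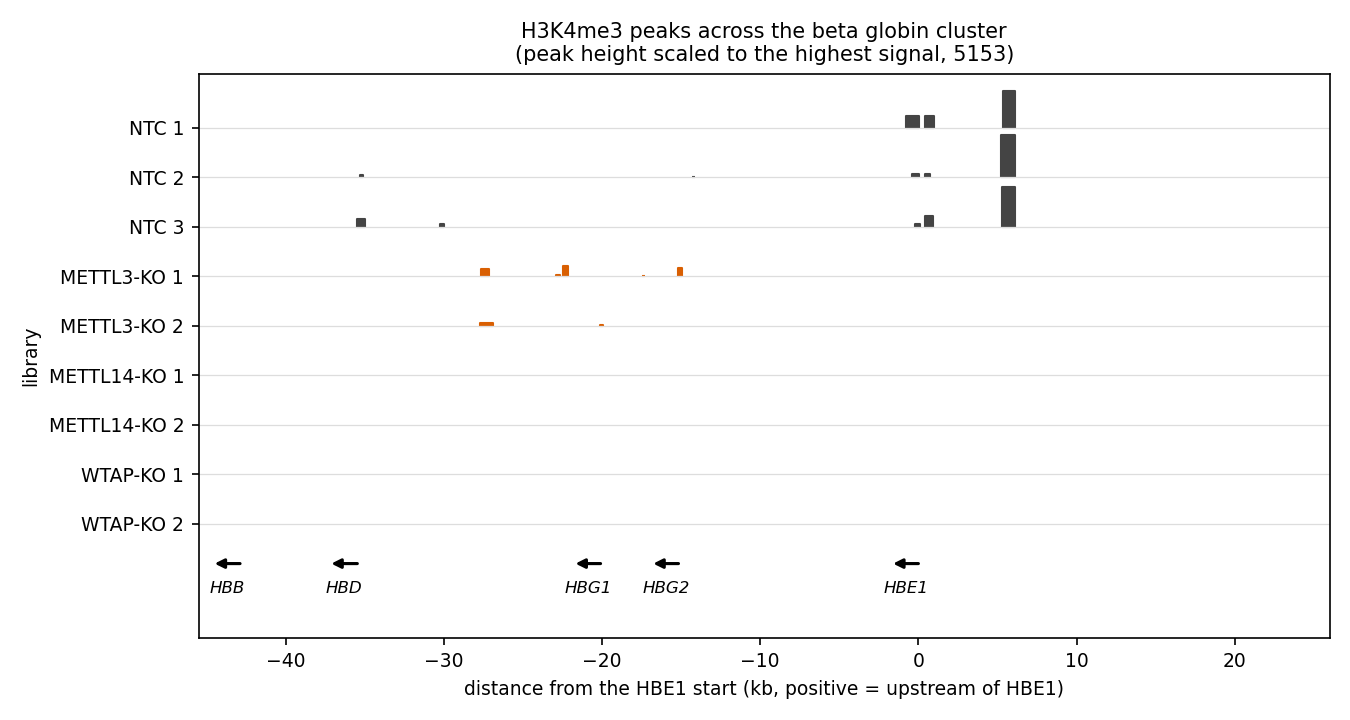
Peaks of the 9 libraries (rows, coloured by group) across the beta globin cluster, by distance from the HBE1 start in kb (x axis, positive upstream); the height of a peak is its signal, scaled to the highest, 5153, and arrows show the genes from start to end. Most NTC peaks stand at and upstream of HBE1 and at HBD. NTC replicate 3 also has a peak of 327 at 5.2 kb upstream of HBD, and replicate 2 one of 96.6 upstream of HBG2. METTL3-KO peaks stand between HBD and the HBG2 start, and METTL14-KO and WTAP-KO rows are empty.

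**Figure D3:**
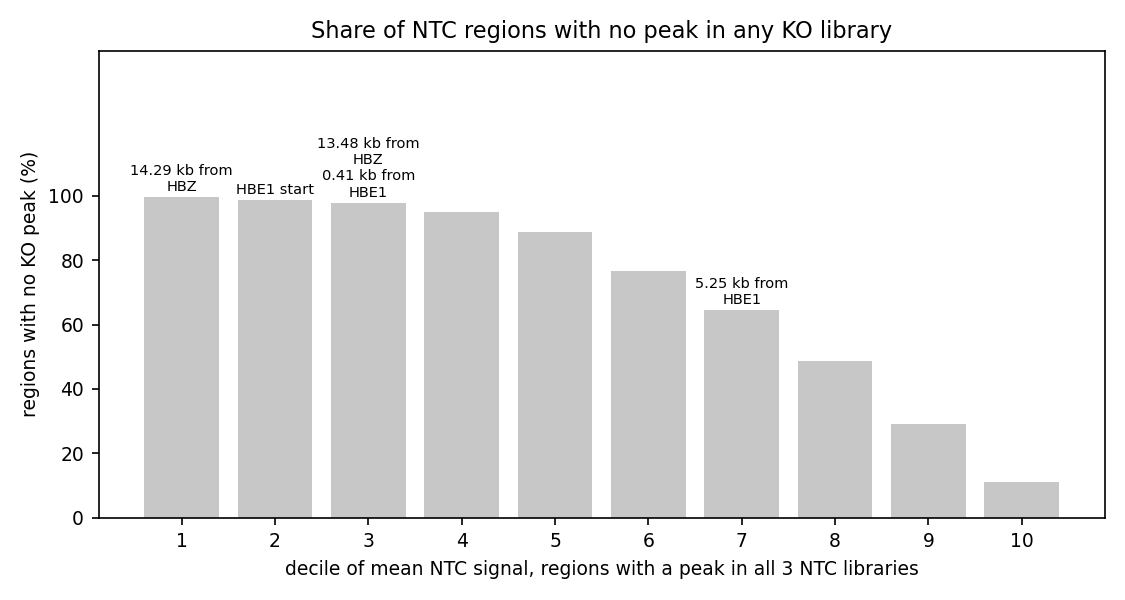
Share of regions with no peak in any KO library (y axis, percent) by decile of mean NTC signal (x axis, 1 = weakest), for the 16226 regions with a peak in all 3 NTC libraries. The 5 globin cluster regions of this kind are named over their decile by distance from the nearest globin start; 4 lie in the weakest 3 deciles, where 97.8% to 99.6% had no KO peak, and 1 in the 7th, at 64.5%.

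HBG2 and HBG1 encode the gamma chains of fetal hemoglobin, and a peak over the start of either was found in a single METTL3-KO library. At HBG2 the signal was 1033 in METTL3-KO replicate 1, from a peak over the start (chr11:5275991-5276246), and no peak was called in METTL3-KO replicate 2. One NTC library, replicate 2, had a peak of 96.6, which lay 0.84 kb upstream and not over the start. HBG2 was not called different between METTL3-KO and NTC by limma (change 1.88, SE 1.49, adjusted p = 0.282), nor between METTL3-KO and the mean of the other KO groups (2.57, SE 1.41, adjusted p = 0.227). Without METTL3-KO replicate 2, which had no HBG2 peak, both passed (4.45, adjusted p = 0.0176, and 5.14, adjusted p = 0.0221), so they rest on 1 library. Under the centring above, HBG2 was also called higher in METTL3-KO (3.66, adjusted p = 0.0468) and in all KO groups (3.01, adjusted p = 0.0312). Centring also shifts libraries without a peak. It moved METTL14-KO to 2.37 and WTAP-KO to 2.98, although neither had an HBG2 peak. The call in all KO groups is therefore no sign of a mark in them. At HBG1 the only peak was 65.1 in METTL3-KO replicate 2, over the start (chr11:5271035-5271214). HBG1 was therefore in too few libraries to be tested. METTL3-KO replicate 1 held 3 further peaks around these genes, at 204 and 1250 beyond the 3′ end of HBG1 (chr11:5268254-5268497 and chr11:5268701-5268999) and at 110 beyond that of HBG2 (chr11:5273735-5273888). None of the 3 was called in METTL3-KO replicate 2 or in any other library. Around the starts of HBG1 and HBG2, 40.8% and 40.6% of 50-base stretches, the read length, occur more than once in GRCh37, each time within 100 kb. How reads that fit both copies were placed is not given in the sources used here, so a peak at one of them may hold reads of the other.

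HBD encodes the delta chain, a minor adult beta-type chain. Counting all its annotated starts, HBD had no peak in NTC replicate 1, 343 in replicate 2 and 991 in replicate 3. The METTL3-KO libraries had 938 and 391, inside the NTC range, and the METTL14-KO and WTAP-KO libraries had none. These values came from different places. The NTC peaks lay just upstream of the main start, in the region chr11:5255721-5256215 that takes in nearly all of the promoter printed above, and there no KO library had a peak. The METTL3-KO peaks lay 7.76 kb and more upstream of the main start, near an alternative HBD start at position 5264887, which is 9174 bases before the main one.

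At the main start, limma called the HBD region lower in all KO groups against NTC (change -2.90, SE 1.07, adjusted p = 0.0395), a region that also entered the fit only through NTC peaks. The call was not made in a KO group alone (adjusted p = 0.0945 to 0.0976), except without NTC replicate 1, where it passed in each (4.15e-04 to 4.21e-04). It was also lost without any one KO library, with adjusted p from 0.0731 to 0.075, and the change turned to 0.12 (adjusted p = 0.927) under the same centring. With all starts pooled, HBD gave a change of -1.44 in all KO groups (SE 1.08, adjusted p = 0.25) and of 1.5 in METTL3-KO (SE 1.40, adjusted p = 0.356). Against the average of the other KO groups, METTL3-KO was 4.41 higher (SE 1.33, adjusted p = 0.0509), where 29.5% of genes tested were called higher. Leaving out 1 NTC library moved these HBD results past the threshold: without replicate 1 the change in all KO groups was -2.89 (adjusted p = 0.00317) and METTL3-KO differed from the other KO groups (adjusted p = 0.00323), and without replicate 3 the latter difference had an adjusted p of 0.0371.

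The one place in the clusters with peaks in both METTL3-KO libraries and in no other was the region chr11:5263474-5264282, over exons of HBBP1, a beta-globin pseudogene between HBG1 and HBD. Its signal was 938 in METTL3-KO replicate 1 and 391 in replicate 2, and both peaks shared 512 bases. It is described because of this pattern, and it entered the limma fit only through its METTL3-KO peaks, so that it had to lie higher in METTL3-KO. The change from NTC was fitted at 4.41 (SE 0.37, adjusted p = 4.01e-05), where 11.2% of regions were called higher, and that from METTL14-KO and WTAP-KO averaged at 4.41 (SE 0.35, adjusted p = 2.47e-04), where 14.7% were. The exact permutation test of 2 against 3 libraries gave p = 0.2, the smallest it allows. Regions found in both METTL3-KO libraries and nowhere else numbered 796 genome-wide, with a median signal of 874, and 35.3% of them were weaker than the one at HBBP1. METTL3-KO replicate 1 had a calibration step of 0.461 signal units and replicate 2 of 1.07, the step being the smallest difference between values, and the part of this scaling in the difference between them was not tested.

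HBB encodes the adult beta chain. No library had a peak near any of its 5 annotated starts, and the nearest NTC peaks lay 42.1, 7.59 and 7.42 kb upstream of its main start in replicates 1, 2 and 3. The adult gene was thus unmarked in NTC cells as well, and a loss could not be measured there.

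Summed over the beta cluster, from 1 kb beyond HBB to 25 kb upstream of HBE1, the signal was 7345, 6467 and 8011 in the NTC libraries. In METTL3-KO it was 3535 and 456, while no METTL14-KO or WTAP-KO library had a peak. METTL3-KO thus held 27.4% of the NTC mean (SD 29.9 over its 2 libraries), and all KO libraries together held 9.14% (SD 19.5, n = 6). The METTL3-KO share rests on replicate 1, since it was 6.27% without it. The peaks covered 2208 ± 246 bases in NTC (SD, n = 3) and 1227 ± 337 in METTL3-KO (SD, n = 2), and the mean signal per covered base was 3.30 ± 0.08 and 1.44 ± 1.38. Without the stretch upstream of HBE1, METTL3-KO held 82.2% of the NTC sum, although none of its peaks lay where the NTC libraries had theirs. There the METTL3-KO libraries had 3535 and 456, against 2872, 1314 and 3097 in NTC, so this share also rests on replicate 1.

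The alpha cluster was weakly marked in NTC and had no peak in any of the 6 KO libraries. HBZ encodes the embryonic zeta chain and had no promoter peak in any library. HBA2 and HBA1 encode the adult alpha chain. HBA2 had 1 peak of 136 in NTC replicate 1, inside the gene (chr16:223197-223375), and HBA1 had 1 peak of 413 in the same library, 0.53 kb upstream of its start (chr16:225707-226151). Neither was called in NTC replicates 2 and 3, so both were outside the test. Around their starts 70.8% and 67.1% of 50-base stretches occur more than once, all within 100 kb, and the peaks at one gene may again hold reads of the other. Since the placing of such reads is not given, reads may also be missing at HBZ, HBA2 and HBA1.

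HBQ1 encodes the theta chain, whose protein is hardly found in red cells. It had 174 in NTC replicate 1 and 410 in replicate 2 and no peak in NTC replicate 3 or in any KO library. Both peaks lay over the end of the gene, in the region chr16:231002-231211, 0.54 kb downstream of the start, and not over the start. Limma called HBQ1 lower in all KO groups against NTC (change -2.21, SE 0.82, adjusted p = 0.0408), so that 2 of the 4 members tested were called lower, where 73.0% of all genes were. HBQ1 entered the test only through its NTC peaks, as HBE1 did, so it had to lie lower in the KO groups. The call did not hold in any KO group alone (adjusted p = 0.0980 to 0.1; without NTC replicate 3, 4.94e-04 to 5.57e-04) or without any one KO library (0.0747 to 0.11). It was also lost in the exact permutation test (p = 0.167, two-sided), and the change turned to 0.63 (adjusted p = 0.542) under the same centring.

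The most reproducible marks near the alpha genes belonged to NPRL3, a subunit of the GATOR1 complex whose introns hold the alpha-globin enhancers. The 2 regions lay over exons at the start of NPRL3, 13.5 and 14.3 kb upstream of HBZ (chr16:188577-189167 and chr16:187748-188349). The nearer one had 1725, 1224 and 751 in NTC replicates 1, 2 and 3, and the farther one 480, 543 and 821. Limma gave changes of -5.31 (SE 0.25, adjusted p = 1.28e-06) and -4.38 (SE 0.18, adjusted p = 6.24e-07) in all KO groups against NTC, where 76.7% of regions were called lower. Both entered the fit only through their NTC peaks, so they had to lie lower. Summed over the cluster, from 50 kb upstream of HBZ to 1 kb beyond HBQ1, the NTC libraries had 2928, 2176 and 1572 and the KO libraries 0. HBM, the gene of the mu chain between HBZ and HBA2, had no peak in any library.

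**Figure D4:**
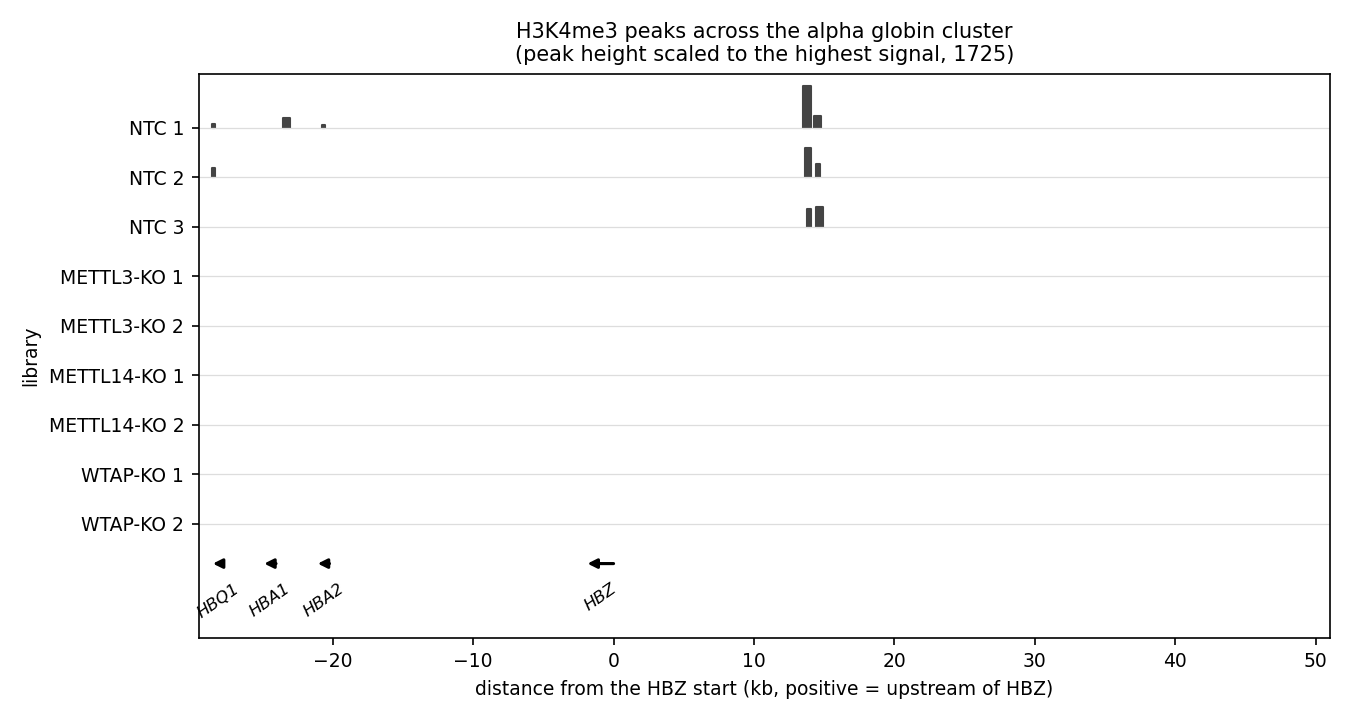
Peaks of the 9 libraries (rows, coloured by group) across the alpha globin cluster, by distance from the HBZ start in kb (x axis, positive upstream); the height of a peak is its signal, scaled to the highest, 1725, and arrows show the genes from start to end. All peaks are in NTC rows, those about 14 kb upstream are the start of NPRL3, and the 6 KO rows are empty.

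AHSP encodes the alpha hemoglobin stabilizing protein, which holds free alpha chains until they find a partner. It lies outside both clusters on chromosome 16 and had no promoter peak in any library. The nearest NTC peaks lay 18.3 to 18.5 kb upstream and the nearest KO peaks 410 kb and more away. As at HBB and HBZ, no change could be measured.

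The members fell into distinct classes by the sequence around their starts. CpG-rich promoters carry H3K4me3 in most cell types, and the ratio of observed to expected CpG in the 1000 bases around the main start was set against all 19873 genes with such a value. HBA1, HBA2 and HBQ1 had ratios of 0.873, 0.872 and 0.829, above the median of 0.726, in deciles of genes of which 56.8%, 56.8% and 53.2% were marked in all NTC libraries. None of these 3 was. Around the starts of HBA1 and HBA2, 67.1% and 70.8% of 50-base stretches are repeated, so a missing mark there cannot be told apart from reads left out. HBE1, HBB, HBD, HBG1 and HBG2 had ratios of 0.0794 to 0.169, all in the lowest decile, of which 9.71% were marked in all NTC libraries. HBE1 was the one of the 5 in that minority. HBZ (0.207) and AHSP (0.275) were in the second decile, of which 15.4% were marked.

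**Figure D5:**
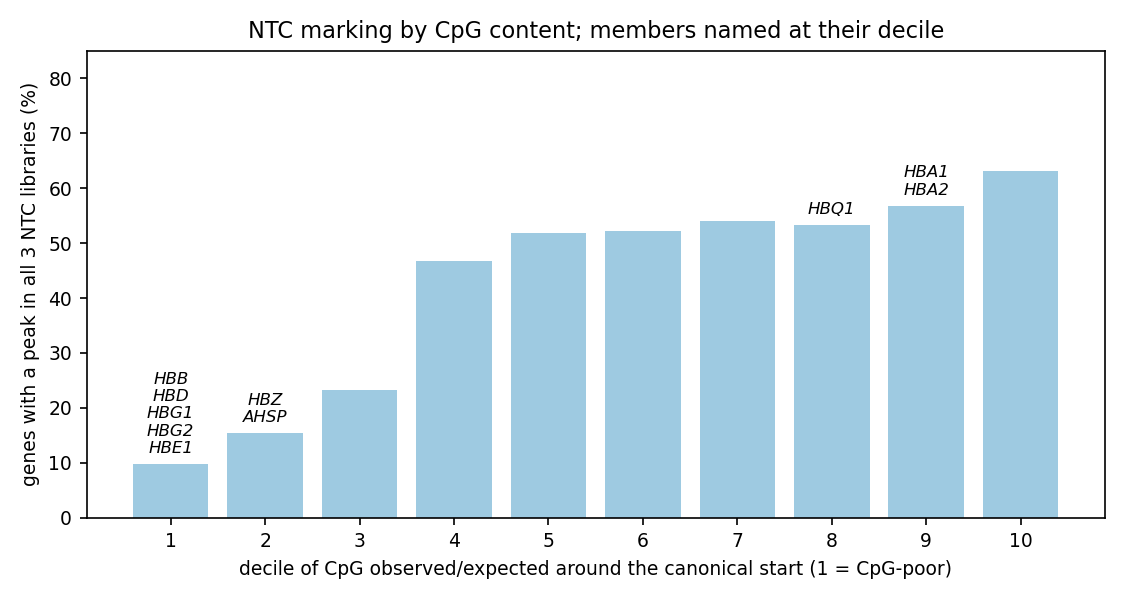
Share of protein-coding genes with a promoter peak in all 3 NTC libraries (y axis, percent) by decile of the CpG observed to expected ratio around the main start (x axis, 1 = poorest), with the 10 members named over their decile. The share runs from 9.71% in the lowest decile, which holds all 5 beta-type genes, to 63.1% in the highest.

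More of the regulators of the globin genes than of the genes themselves were marked. Of 12 listed regulators, 9 were marked in all NTC libraries and all 12 in at least 1, while 8 had a peak in METTL3-KO, 4 in METTL14-KO and 3 in WTAP-KO. The shares over all protein-coding genes were 42.1% and 52.4% in NTC and 38.1%, 21.9% and 14.7% in the 3 KO groups. In all KO groups against NTC, 10 of the 12 were called lower and none higher, with a median change of -4.67, where 73.0% of all genes tested were called lower and the median was -5.30. In METTL3-KO 6 were called lower (60.9% of all genes), in METTL14-KO 9 (68.8%) and in WTAP-KO 9 (69.7%). Against the other KO groups, 3 of the 12 (LDB1, MYB and TAL1) were called higher in METTL3-KO (29.5% of all genes). KLF1, the activator of HBB, had 10348, 8488 and 11190 in NTC and no KO peak. GATA1, the erythroid GATA factor, had 2638, 2788 and 2982 and no KO peak. BCL11A, the repressor of the gamma genes, had 7010, 7812 and 9522 in NTC, 7501 and 3330 in METTL3-KO, and at most 1086 in the other KO libraries. BCL11A was thus not called lower in METTL3-KO (change -0.68, SE 1.72, adjusted p = 0.738), and its difference from the other KO groups was 5.15 (SE 1.63, adjusted p = 0.0592). MYB, a factor that holds back fetal globin, was lower in METTL3-KO at 987 and 1389 against 10577, 12092 and 12230 in NTC (change -3.28, SE 0.99, adjusted p = 0.0214).

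The genes with the pattern most like a member were found by the Euclidean distance of log2(signal + 30.1) over the 9 libraries. For HBE1 they were SRSF12, HIST2H2AA3 and DBX2, at distances of 0.0987 to 0.169. For HBQ1 they were TPST1, RNF32 and PLXNB1 (0.0998 to 0.319). HBD had no close match, with UQCR10, RPL22L1 and COX4I1 at 1.86 to 2.62. For HBG2 the nearest was ENSG00000284931 at 0, an overlapping annotated gene with the same peaks, followed by HIF1A and AMPD2 at 1.75 and 1.91.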

How the data were processed

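H3K4me3 CUT&RUN libraries of HEL cells were compared in 4 groups taken from the sample labels. The authors aligned 50-base paired reads with Bowtie to hg19 and to the yeast genome sacCer3, calibrated on the yeast spike-in, removed duplicates with Picard, and deposited peaks called in each library with a signal in calibrated coverage units. Versions are not given in the sources used here. Peak starts were assumed to count from 0 and are printed from 1. Over 99.9% of values in each library were whole multiples of a step (within 0.05 step). Depth is unknown; precision rests on 2 or 3 libraries a group.

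Starts came from GENCODE v44 on GRCh37. The largest peak within 1 kb of a start, or the summed signal of regions merged from overlapping peaks (1 bp), was tested with limma 3.58.1 (R 4.3.3, trend option, Benjamini-Hochberg threshold 0.05) on log2(signal + 30.1), the smallest value, over features in at least 2 libraries, with 4 groups in 1 model. This scale understates the change of weak features. Libraries without a peak have equal values, which add no spread to the fit, so SE and p can be too small where a group has no peak. The limma fit was tested on simulated data of normal, even spread, which lacked the many values without a peak found here. Exact permutation tests used scipy 1.17.1. The members, gene lists and tests were chosen with earlier results of these data known. The text names the 10 members, up to 4 of 12 regulators with values, and the 3 regulators called higher in METTL3-KO than in the other KO groups. It also names other cluster genes and the 3 genes nearest in pattern to each member with peaks in 2 or more libraries. Marker and regulator lists were written by hand, and one marker list is not reported here. Alternatives were other pseudocounts, filters, windows, scalings, starts, a peak threshold, the replicate block and leaving out each library. No sequencing batch is given.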

Additional observations from a re-analysis of the deposited data

Results flagged for a closer look

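The region over HBBP1 (chr11:5263474-5264282) differed between knockouts: METTL3-KO was 4.41 higher on the log2(signal + 30.1) scale than the average of the other KO groups (SE 0.35, limma adjusted p = 2.47e-04), with a peak in 2 of 2 METTL3-KO libraries and in none of the other 7. The region was singled out for this pattern and entered the fit only through those 2 libraries, so the direction was fixed and the p is no independent evidence of it. Outlying libraries were not looked for, since the groups hold 2 or 3 libraries.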

How the results depend on the processing

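HBE1 was called lower in all KO groups under each alternative fit and in the exact permutation test, with changes from -8.34 to -2.12 in limma, and the region 5.25 kb upstream of it likewise (-10.7 to -4.09). With the peak threshold raised to the NTC median, HBE1 had no peak left and could not be fitted. HBQ1 was not: the number of members called lower fell from 2 to 1 with the pseudocount 10 times higher, with features in at least 3 libraries, with centring on features called in all 9 libraries, and in the exact permutation test. Leaving out 1 library gave 1 to 2 members, and without NTC replicate 1 the second was HBD in place of HBQ1.

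Centring moved HBQ1 to 0.63 in all KO groups, 0.85 in METTL14-KO and 1.46 in WTAP-KO, HBD to 1.40, 0.16 and 0.77, and HBG2 to 2.37 in METTL14-KO and 2.98 in WTAP-KO, against the median of all genes at -2.46. It moved the HBQ1 region (chr16:231002-231211) to 0.81, 1.02 and 1.59 and the HBD start region (chr11:5255721-5256215) to 0.12, 0.32 and 0.90. Centring also ended the WTAP-KO calls at both HBE1 promoter regions (-0.66 and -1.26) and at the farther NPRL3 region (-0.58), and the METTL14-KO call at the HBE1 start (-1.23). None of these passed the threshold. Centring subtracts a library's median from its values without a peak as well. METTL14-KO and WTAP-KO libraries had no peak at any of these places, so the moves there are shifts of empty values. HBG2 in all KO groups, at 0.17, turned to -0.28 with the pseudocount 0.1 times as high and to -0.18 without NTC replicate 1, without NTC replicate 3 or with the replicate block. The call at HBBP1 in all KO groups was lost when the KO libraries were fitted as 1 group with NTC alone (adjusted p = 0.305).

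Keeping peaks no weaker than the NTC median left 0 members marked in NTC or KO libraries. The METTL3-KO share of the beta cluster signal moved to 82.2% without the stretch upstream of HBE1, 80.8% by number of peaks and 69.2% in calibration steps, and lay between 6.27% and 48.6% when a library was left out. METTL3-KO replicate 1 gave the larger part in each of these readings.

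The labels do not say whether replicate numbers pair the samples. Over 12 pairs of the same number, deviations from the group means correlated at -0.069 to 0.054. In groups of 2 libraries these deviations mirror each other, so the pairs are not independent and the check cannot exclude pairing. The replicate block gave HBE1 a change of -4.83 and HBQ1 one of -3.31 and ended the call at the HBD start region (-1.82, adjusted p = 0.143). The depth is unknown, so a peak missing in a KO library cannot be told apart from one under that library's threshold.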
